A study of Solanum tuberosum with 9 samples.

Results

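The terpene synthases of potato leaf were examined in the bulk samples F’, B’ and A’. The rule took every gene whose product name contains “terpene synthase”, “germacrene”, “vetispiradiene”, “aristolochene”, “linalool”, “viridiflorene”, “farnesene”, “terpineol”, “myrcene”, “limonene” or “camphene”, and it found 26 of the 24169 genes that the deposited comparisons list. Of these members, 20 were listed in both comparisons, 22 were listed for B’ and A’, and 24 were listed for F’ and A’. By product name, there were 5 loci of germacrene D synthase, 5 of vetispiradiene synthase, 3 of germacrene C synthase, 3 of farnesene synthase, 3 of camphene/tricyclene synthase and 2 of alpha-terpineol synthase. Germacrene B synthase, viridiflorene synthase, geranyllinalool synthase and terpene synthase 10 had 1 locus each. The remaining member, LOC102586443, was taken in by the word “aristolochene” but is named a 5-epiaristolochene 1,3-dihydroxylase, which is a cytochrome P450 that oxidises a sesquiterpene and not a synthase.

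All plants belonged to a segregating diploid population, labelled Solanum tuberosum and Diploid hybrid 15-1, and all had leaves rich in glycoalkaloids. The study derived this population from a cross of a diploid Solanum hybrid with the wild species S. chacoense. Leaf extracts of the F’ plants stimulated the growth of mustard seedlings (labelled hormesis), those of the B’ plants had a low phytotoxic potential, and those of the A’ plants, the study’s control, had a high one. The leaves came from untreated plants in a greenhouse at full anthesis, each group was a bulk of 3 individuals sequenced as 3 libraries, and the question was which genes go with the phytotoxicity of the leaf. How the 3 libraries of a bulk arose is not given in the sources used here, so p-values measure only the spread between these libraries, which may be technical.

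Terpene synthases turn a linear prenyl diphosphate into a terpene skeleton. Geranyl diphosphate, made mostly in the plastid, gives monoterpenes such as alpha-terpineol and camphene, and farnesyl diphosphate, made mostly in the cytosol, gives sesquiterpenes such as germacrenes, farnesenes and vetispiradiene. Vetispiradiene is the precursor of solavetivone and related phytoalexins of potato, which are best known from elicited tubers, and volatile mono- and sesquiterpenes are released by leaves and by their glandular trichomes. In a bulk of leaf tissue, fewer cells of a type and less RNA per cell cannot be told apart.

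Between 21199110 and 22517178 reads were counted on genes per library. A positive Log2FC was higher in the first-named bulk, and called genes had an FDR under 0.05 in edgeR’s quasi-likelihood test over all genes tested. All 39 genes of the leaf list (small subunit of Rubisco and chlorophyll a-b binding proteins) had enough reads, and they summed to a CPM (reads over the TMM-scaled library size) between 95070 and 114600 in F’, 71360 and 85360 in B’, and 128200 and 165100 in A’. Of the leaf list, 35 were called lower in B’ and 32 were called lower in F’ than in A’, and none was called higher. Of all genes tested, 16.5% were called lower in B’ and 18.2% were called lower in F’ than in A’. The acylsugar list for glandular trichomes held 5 genes whose summed levels were low, with a CPM between 0.915 and 1.27 in F’, 2.36 and 2.61 in B’, and 1.85 and 2.39 in A’. Lists for elicited defence (86 genes) summed to a CPM between 2636 and 3514 in F’, 4307 and 4935 in B’, and 2032 and 2387 in A’. In F’ against A’, 19 were called higher and 21 lower. This is 63.5% of the 63 tested, against 35.6% of all genes. In B’ against A’, 22 were called higher and 16 lower. This is 62.3% of the 61 tested, against 32.9% of all genes. The part of these shifts in the results on terpene synthases was not tested. Patatin and pollen- or anther-specific genes were also found, at a summed CPM of no more than 237.4 and 201.2 in any library.

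Most terpene synthase loci had very few reads in these leaves. Only 7 of the 26 members had enough reads to be tested in at least 1 comparison, and 16 members had at most 10 reads in every library that lists them. Members summed to few reads in all: the 20 loci listed in both comparisons had a summed CPM of 53.3 ± 1.89 in F’, 32.6 ± 2.64 in B’ and 19.1 ± 1.52 in A’ (SD, n = 3 libraries each). The libraries of the 3 bulks did not overlap in this sum. The loci that made up the sum differed as well. An alpha-terpineol synthase-like locus, LOC102598478, took 53.6% ± 6.34 of these reads in F’, 75.6% ± 7.11 in B’ and 21.2% ± 1.22 in A’, and a germacrene D synthase-like locus, LOC102598796, took 30.8% ± 4.46 in F’, 5.68% ± 1.63 in B’ and 57.4% ± 1.46 in A’. Alpha-terpineol synthase was therefore the member with the most reads in F’ and B’, and germacrene D synthase was that in A’. These shares are shares of reads, which grow with the length of a transcript, and they do not rank the loci by the number of transcripts.

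**Figure D1:**
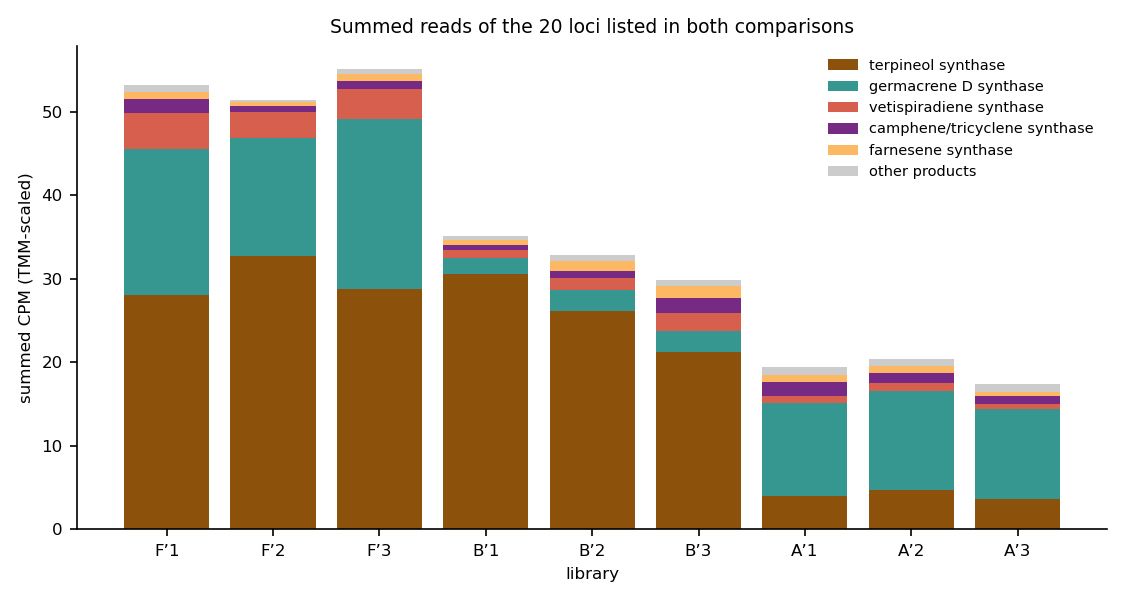
Summed CPM (y axis, reads over the TMM-scaled library size) of the 20 terpene synthase loci listed in both comparisons, in each of the 9 libraries (x axis), stacked by product name. The F’ libraries stand between 51.4 and 55.2, the B’ libraries between 29.8 and 35.1 and the A’ libraries between 17.4 and 20.4, and the germacrene D synthase part is thin in B’ only.

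In B’ against A’, all 6 members tested were called, 4 of them higher and 2 lower in B’, where 32.9% of all genes tested were called, 16.4% higher and 16.5% lower. In F’ against A’, 5 of the 7 members tested were called, all of them higher in F’, where 35.6% of all genes tested were called, 17.5% higher and 18.2% lower. In F’ against B’, 2 of the 6 members tested were called, both higher in F’, where 30% of all genes tested were called, 13.7% higher and 16.3% lower. A locus with few reads passed the filter on low counts only where a group was high, so the share of tested members that was called is no measure of the family. The other 20, 19 and 20 members of these 3 comparisons were not tested.

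**Figure D2:**
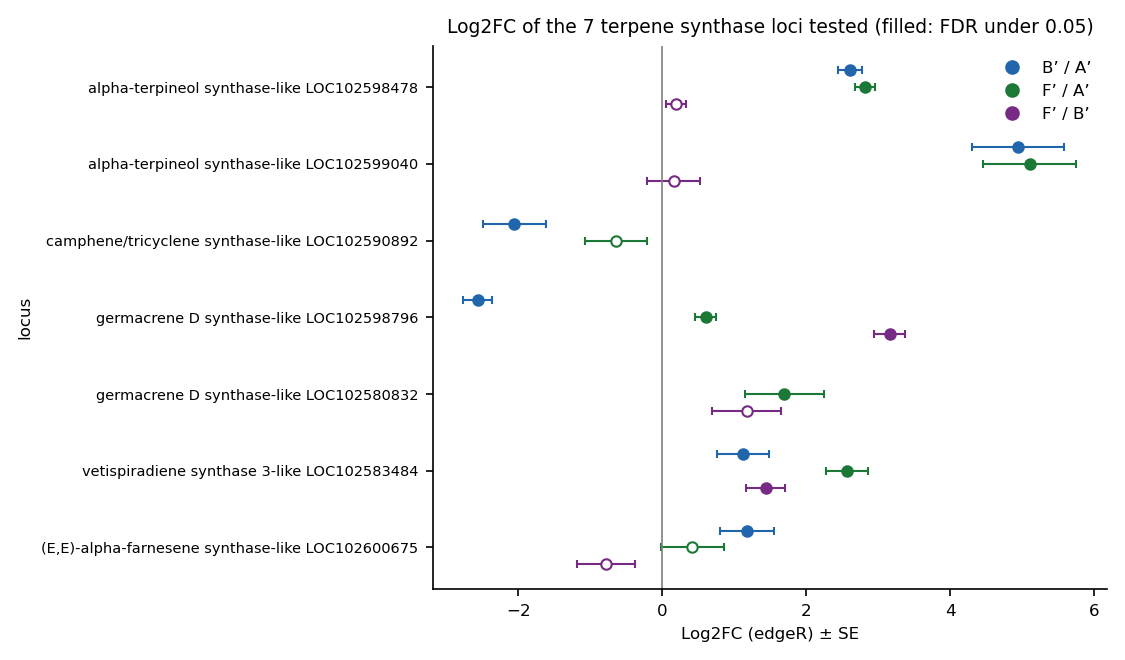
Log2FC from edgeR (x axis, ± SE) of the 7 terpene synthase loci tested (y axis) in B’ against A’, F’ against A’ and F’ against B’, with filled points for an FDR under 0.05. Both alpha-terpineol synthase-like loci lie to the right in B’ and in F’ against A’ and near 0 in F’ against B’, while LOC102598796 lies at −2.57 in B’ against A’ and at 3.16 in F’ against B’. With at most 1 read in an A’ library, the fitted Log2FC of LOC102599040 against A’ moves with the prior count and is no measure of size.

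Among the monoterpene synthases, the alpha-terpineol synthase-like loci were higher in both bulks than in A’. LOC102598478 had 643, 649 and 617 reads in the F’ libraries, 690, 595 and 521 reads in the B’ libraries, and 75, 94 and 69 reads in the A’ libraries. Every F’ and B’ library thus stood far above every A’ library, and the F’ and B’ libraries overlapped. The locus rose 7.04-fold in F’ (Log2FC = 2.82 ± 0.14, SE; FDR = 5.3e-09) and 6.11-fold in B’ (Log2FC = 2.61 ± 0.17; FDR = 1.0e-06) relative to A’, by edgeR’s quasi-likelihood test. Between F’ and B’ it did not pass the test (Log2FC = 0.19 ± 0.14, FDR = 0.358).

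The second alpha-terpineol synthase-like locus, LOC102599040, was nearly unread in A’. It had 21, 30 and 41 reads in the F’ libraries, 41, 25 and 23 reads in the B’ libraries, and 0, 1 and 1 reads in the A’ libraries. With A’ set to the floor of 3 reads per library, its excess over A’ came to at least 8.91-fold in F’ and at least 7.93-fold in B’, and both differences were called (FDR = 3.5e-05 and 1.3e-04 by edgeR). In F’ against B’, its Log2FC was 0.16 ± 0.37 (FDR = 0.786), with overlapping libraries. This locus spans positions 58985 to 61853 on the plus strand of a SolTub_3.0 contig, and LOC102598478 spans positions 59004 to 75826 on the same strand, so that 2850 of the 2869 bases of LOC102599040 lie inside the other gene model. Reads of the pair could therefore be assigned to either model, and they are not independent. In each library, the reads of LOC102599040 came to between 3.27% and 6.64% of those of LOC102598478 in F’, 4.20% and 5.94% in B’, and 0% and 1.45% in A’.

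Camphene/tricyclene synthase, another plastid monoterpene synthase, went the other way at 1 of its 3 loci. LOC102590892 had 26, 8 and 11 reads in the F’ libraries, 3, 8 and 7 in the B’ libraries and 26, 21 and 14 in the A’ libraries. All B’ libraries were below all A’ libraries, and F’ overlapped with A’. On the CPM scale every F’ library was above every B’ library, but the locus had too few reads for the test of F’ against B’. It fell by 2.06 on the log2 scale in B’ (SE 0.44, FDR = 0.0038 by edgeR), and in F’ its Log2FC of −0.64 ± 0.43 did not pass the test (FDR = 0.269). The other loci, LOC102591915 and LOC102602070, were not tested and had at most 9 reads in any F’ library, 26 in any B’ library and 5 in any A’ library. In both of them the highest count was in B’ library 3 (26 and 11 reads). Unlike LOC102590892, LOC102591915 had every B’ library (8, 10 and 26 reads) above every A’ library (5, 5 and 5 reads). LOC102602070 overlapped between B’ and A’, and its F’ libraries (6, 2 and 2 reads) were above its A’ libraries (1, 0 and 0 reads). Over all genes, B’ library 3, A’ library 1 and F’ library 2 each differed more from the other libraries of their bulk than those did from each other. The terpene synthase 10-like locus, LOC102589669, lies on the same contig and had at most 6 reads in a library. Its gene model overlaps that of a magnesium-dependent phosphatase by 778 bases on the opposite strand.

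**Figure D3:**
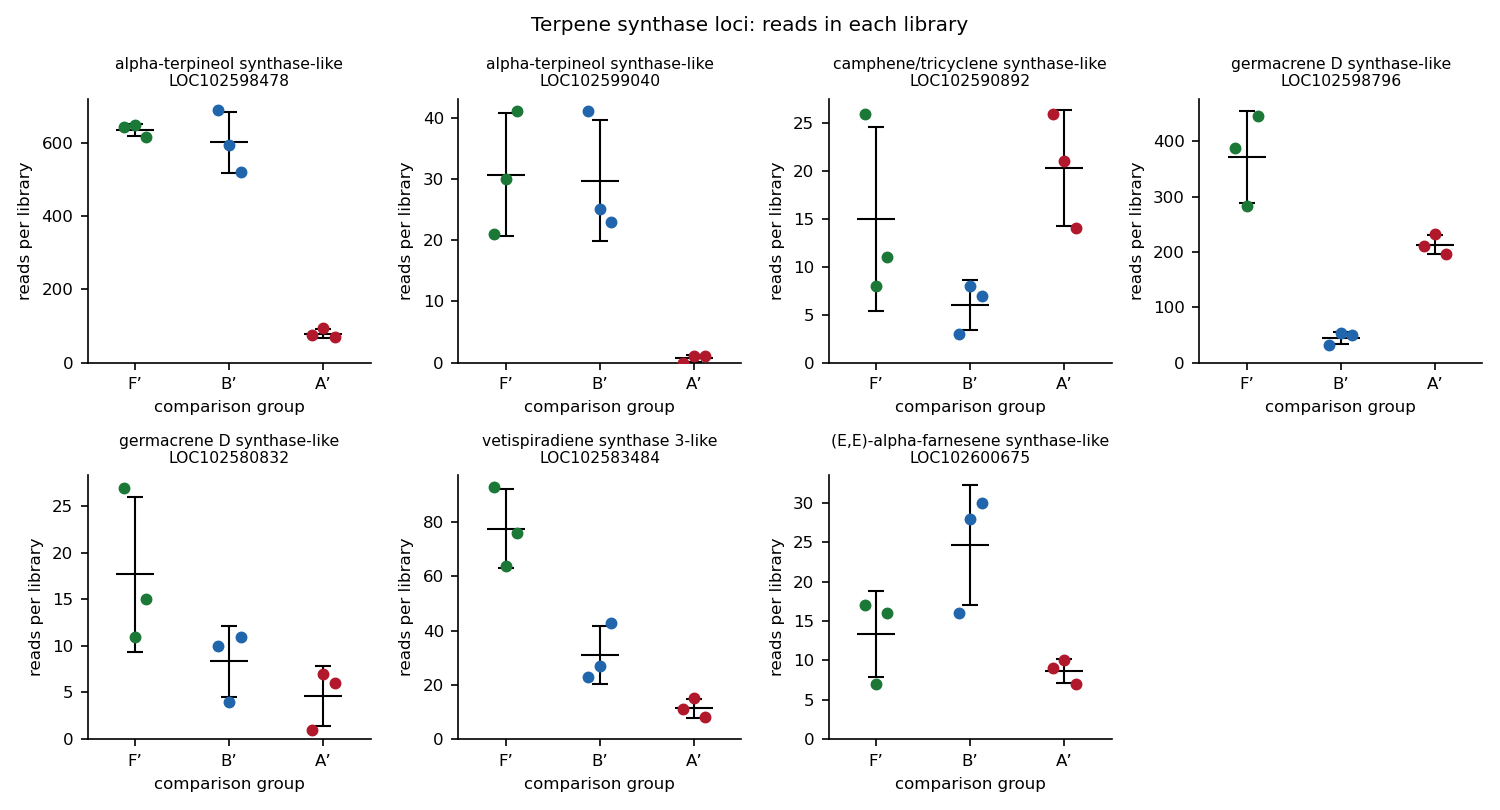
Reads per library (y axis, linear from 0, a scale per panel) of the 7 terpene synthase loci tested in F’, B’ and A’ (x axis). Points are libraries, and bars give the mean ± SD (n = 3). The A’ libraries of LOC102598478 lie between 69 and 94 reads, below all F’ and B’ libraries, and for LOC102598796 the B’ libraries (32 to 53 reads) lie below A’ (197 to 232 reads) and F’ (282 to 446 reads).

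The sesquiterpene synthase with the most reads separated all 3 bulks. LOC102598796, named (−)-germacrene D synthase-like and placed on chromosome 7 by the files, had 388, 282 and 446 reads in the F’ libraries, 32, 53 and 49 reads in the B’ libraries, and 210, 232 and 197 reads in the A’ libraries. The bulks did not overlap, with F’ highest and B’ lowest. Relative to A’, it was 5.93-fold lower in B’ (Log2FC = −2.57 ± 0.20, FDR = 2.8e-06) and 1.52-fold higher in F’ (Log2FC = 0.61 ± 0.15, FDR = 0.005) by edgeR. F’ was 8.95-fold above B’ (Log2FC = 3.16 ± 0.21, FDR = 5.7e-06).

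The other germacrene D synthase-like loci had far fewer reads. LOC102580832 had 27, 11 and 15 reads in the F’ libraries, 10, 4 and 11 in the B’ libraries, and 1, 7 and 6 in the A’ libraries. It was called higher in F’ than in A’ (Log2FC = 1.70 ± 0.55, FDR = 0.0263 by edgeR), and the call was lost without F’ library 1, the highest (Log2FC = 1.30, FDR = 0.135), A’ library 1 (FDR = 0.0949) or A’ library 3 (FDR = 0.0568). In F’ against B’, its Log2FC was 1.18 ± 0.48 (FDR = 0.0922), and it had too few reads for B’ against A’. The remaining 3 loci had at most 4 reads in any library.

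Vetispiradiene synthase, which makes the precursor of solavetivone, was read mainly at 1 of its 5 loci. LOC102583484, named vetispiradiene synthase 3-like, had 93, 64 and 76 reads in the F’ libraries, 23, 27 and 43 reads in the B’ libraries, and 11, 15 and 8 reads in the A’ libraries. The bulks were ordered F’, B’ and A’ from high to low, without overlap. It was 5.93-fold higher in F’ than in A’ (Log2FC = 2.57 ± 0.29, FDR = 1.2e-05 by edgeR) and 2.71-fold higher in F’ than in B’ (Log2FC = 1.44 ± 0.27, FDR = 0.0025). The smaller difference of B’ from A’ was also called (Log2FC = 1.12 ± 0.36, FDR = 0.0327), but it did not pass without A’ library 1, A’ library 3, B’ library 2 or B’ library 3 (FDR between 0.0609 and 0.134) or with DESeq2 (FDR = 0.060). The other 4 loci had at most 13 reads in a library, with that maximum in B’ library 3 at LOC102580114.

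The 5-epiaristolochene 1,3-dihydroxylase-like member, LOC102586443, lies 19192 bases from LOC102583484 on the same contig. It had 6, 9 and 5 reads in the F’ libraries and 0, 0 and 0 reads in the A’ libraries, and was not listed for B’. Against the floor of 3 reads per A’ library, F’ was higher by at least 1.96-fold. It was not tested because of its low counts. Of the 4 listed genes within 60 kb of LOC102583484, LOC102586443 among them, none had enough reads to be tested in any comparison. The rest of the vetispiradiene loci, apart from LOC102592011, lie together with the viridiflorene synthase locus LOC102582444 on another contig, and LOC102582444 had at most 3 reads in a library.

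Farnesene synthases make the acyclic sesquiterpenes farnesene, which many plants release after herbivory. LOC102600675, named (E,E)-alpha-farnesene synthase-like, had 17, 7 and 16 reads in the F’ libraries, 16, 28 and 30 reads in the B’ libraries, and 9, 10 and 7 reads in the A’ libraries. B’ was above A’ without overlap, and F’ overlapped with both. The difference of B’ from A’ was called (Log2FC = 1.18 ± 0.37, FDR = 0.0303 by edgeR), and it was lost when any library other than B’ library 1 was left out (FDR between 0.0654 and 0.117) and with DESeq2 (FDR = 0.0754). In F’ against A’ (Log2FC = 0.42 ± 0.44, FDR = 0.490) and F’ against B’ (Log2FC = −0.78 ± 0.40, FDR = 0.181), it did not pass the test. The other 2 farnesene loci had at most 8 reads in a library.

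Of the 3 germacrene C synthase loci, 1 was read mainly in A’. LOC102597215, on chromosome 6 and chosen after its values were seen, had 0, 0 and 1 reads in the F’ libraries, 1, 2 and 3 reads in the B’ libraries, and 10, 7 and 8 reads in the A’ libraries. It was too low to be tested under the filter. Against the floor of 3 reads per library, F’ was lower than A’ by at least 3.21-fold and B’ by at least 3.50-fold. LOC102596935, another germacrene C locus, went the other way between B’ and A’ and was not tested. Its reads were 4, 0 and 5 in F’, 3, 7 and 7 in B’, and 1, 0 and 1 in A’. The other germacrene C loci had at most 7 reads, the germacrene B locus at most 7 reads and the geranyllinalool locus LOC102599238 on chromosome 3 between 3 and 6 reads in every library. Geranyllinalool synthase makes the precursor of a volatile homoterpene, and its libraries overlapped between all bulks.

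The members were not scattered singly over the assembly. Of the 26 loci, 17 lay on 5 contigs that held 2 or more members each, and 9 contigs held 1. The contig of the alpha-terpineol pair also held the 3 farnesene loci, and another held the 3 camphene/tricyclene loci with the terpene synthase 10-like locus. On the first contig, the alpha-terpineol pair and LOC102600675 were called higher in B’ than in A’, and the pair but not LOC102600675 was called in F’ against A’. Members with the same product name can share nearly identical stretches, and how reads that map to several loci were counted is not given in the sources used here, so values of single loci within a product name are uncertain to that extent. The files give a chromosome for 5 members only.

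Around the germacrene D synthase-like locus, the pattern of LOC102598796 was shared by its neighbours on 1 side (chosen after their values were seen). LOC102599128, named beta-caryophyllene synthase-like and thus a sesquiterpene synthase that the words of the rule did not take in, starts 3447 bases from it on the same strand. It had 181, 151 and 143 reads in the F’ libraries, 12, 14 and 14 in the B’ libraries, and 74, 118 and 79 in the A’ libraries. These values gave a Log2FC of −3.06 ± 0.27 in B’ against A’ (FDR = 8.6e-06 by edgeR), 0.62 ± 0.18 in F’ against A’ (FDR = 0.0172) and 3.67 ± 0.22 in F’ against B’ (FDR = 2.9e-06). LOC102599454, a locus with no product name 25216 bases away, had 586, 485 and 478 reads in the F’ libraries, 30, 40 and 60 in the B’ libraries, and 264, 267 and 252 in the A’ libraries. Its Log2FC was −2.91 ± 0.20 in B’ against A’ (FDR = 1.6e-06), 0.79 ± 0.12 in F’ against A’ (FDR = 1.7e-04) and 3.69 ± 0.20 in F’ against B’ (FDR = 1.8e-06). On the other side, the adjacent rRNA methyltransferase gene LOC102592311 had a Log2FC of 0.37 ± 0.12 in B’ against A’ (FDR = 0.0328) and −0.15 ± 0.11 in F’ against B’ (FDR = 0.365). Farther out on that side, LOC102597820 was also called lower in B’ than in A’. With B’ set to the floor of 3 reads per library, the difference was at least 6.09-fold (FDR = 8.3e-04 by edgeR). Unlike LOC102598796, it was lower than A’ in F’ as well (Log2FC = −1.38). Every F’ library of it was above every B’ library, but F’ against B’ was not tested. The contig carries LOC102598796 at positions 377146 to 379957 on the minus strand (SolTub_3.0). How any reads shared between LOC102598796, LOC102599128 and LOC102599454 were counted is not given in the sources used here, so these loci may not be independent.

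**Figure D4:**
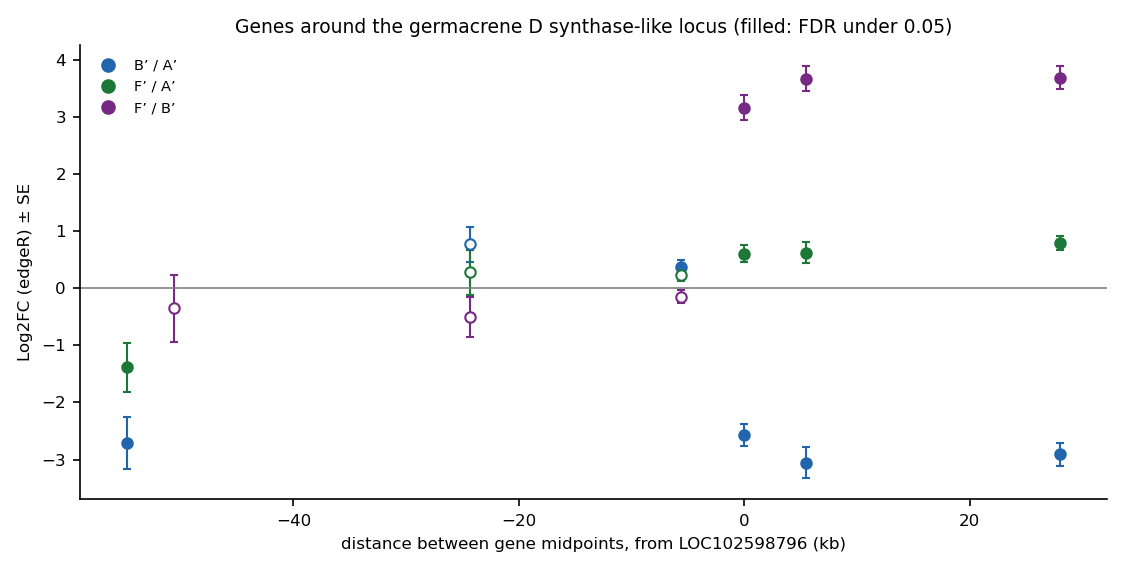
Log2FC from edgeR (y axis, ± SE) of the genes tested within 60 kb of the germacrene D synthase-like locus LOC102598796, by the distance of their midpoints from it (x axis, kb), with filled points for an FDR under 0.05. The locus at 0 and both tested genes to its right lie between −3.06 and −2.57 in B’ against A’ and between 3.16 and 3.69 in F’ against B’. The leftmost gene, LOC102597820, also lies below 0 in B’ and in F’ against A’. Its B’ libraries are at the floor of 3 reads per library, so that its fitted position in B’ is no measure of size.

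Genes that supply the precursors were called in both directions. Of the 15 mevalonate pathway genes, which make the precursor of sesquiterpenes, 14 were tested. In B’ against A’, 5 were called higher and 2 lower, which is 50% of those tested, against 32.9% of all genes (median Log2FC 0.15, against 0.02 over all genes). In F’ against A’, 4 were called higher and 4 lower, which is 57.1%, against 35.6% of all genes (median −0.27, against 0.025 over all genes). In F’ against B’, 6 were called lower and none higher, where 16.3% of all genes were called lower and 13.7% higher (median −0.20). A 3-hydroxy-3-methylglutaryl-coenzyme A reductase gene, LOC102577899, of the enzyme that commits carbon to this pathway, was higher in both bulks, with 594, 689 and 608 reads in F’, 1040, 1069 and 984 in B’, and 175, 244 and 238 in A’. Its Log2FC was 1.34 ± 0.15 in F’ and 1.92 ± 0.14 in B’ against A’ (FDR = 9.9e-06 and 2.2e-06 by edgeR). A second reductase gene, LOC102599791, was called in F’ against B’ only (Log2FC = −0.65, FDR = 0.0447). The hydroxymethylglutaryl-CoA synthase-like genes split: LOC102584775 was higher in F’ and B’ than in A’ (Log2FC = 0.74 and 0.93), and LOC102597613 was lower in F’ than in A’ (Log2FC = −0.90, FDR = 1.4e-04). All 7 genes of the plastid MEP pathway, which feeds monoterpenes, were tested, and 2 were called lower in B’ than in A’ (LOC102596520, Log2FC = −0.36, and LOC102598525, Log2FC = −0.50). These are 28.6% of the list, near the 32.9% called over all genes. None of the 7 was called in F’ against A’, where 35.6% of all genes were, and only LOC102596520 was called in F’ against B’ (Log2FC = 0.36, FDR = 0.0226), which is 14.3% of the list against 30% of all genes.

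The prenyl transferases join these units into the substrates of the synthases. Of 11 isomerase and prenyl transferase genes, 2 were called higher and 3 lower in B’ than in A’, and also 2 higher and 3 lower in F’ than in A’. In either comparison this is 45.5% of the list, against 32.9% of all genes in B’ and 35.6% in F’. In F’ against B’, 2 were called lower and none higher, which is 18.2% of the list, against 30% of all genes. The gene with the largest change was LOC102587251, named geranylgeranyl pyrophosphate synthase 7, whose product serves diterpenes and carotenoids. It had 257, 272 and 234 reads in the F’ libraries, 931, 1127 and 1024 in the B’ libraries, and 55, 36 and 34 in the A’ libraries, which is 5.34-fold higher in F’ and 19.7-fold higher in B’ than in A’ (FDR = 7.8e-07 and 6.1e-08 by edgeR). Others of this name were lower, LOC102580697 in both bulks (Log2FC = −0.65 in F’ and −0.70 in B’) and LOC102589012 in F’ against A’ (Log2FC = −1.39), while LOC102589012 was higher in B’ than in A’ (Log2FC = 0.41, FDR = 0.0241).

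Genes listed as competing synthases, by product words for sterols, carotenoids and diterpenes, were mostly lower in B’ than in A’. Not all of these enzymes use the substrates of the members. Of the 8 competing synthases, 7 were tested, and 6 were called lower and none higher in B’ than in A’ (median Log2FC −0.81), where 16.5% of all genes were called lower. In F’ against A’, 1 was called higher and 1 lower (median −0.09), which is 28.6% of those tested, against 35.6% of all genes. In F’ against B’, 5 were called higher and 1 lower (median 0.68), where 13.7% of all genes were called higher and 16.3% lower. Phytoene synthase 1 (LOC102593756), the entry into carotenoids, had 596, 478 and 578 reads in F’, 137, 100 and 130 in B’, and 444, 455 and 372 in A’. It was 4.32-fold lower in B’ than in A’ (FDR = 1.9e-06 by edgeR) and 4.86-fold higher in F’ than in B’ (FDR = 3.6e-06). A squalene monooxygenase-like gene of sterol synthesis, LOC102579136, was lower in B’ than in A’ (Log2FC = −1.05 ± 0.12) and higher in F’ (Log2FC = 0.65 ± 0.13), and a cycloartenol synthase-like gene, LOC102602455, was lower in F’ than in A’ (Log2FC = −0.61, FDR = 0.0051). The leaf markers were lower than in A’ in both B’ and F’, and their part in this was not tested.

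**Figure D5:**
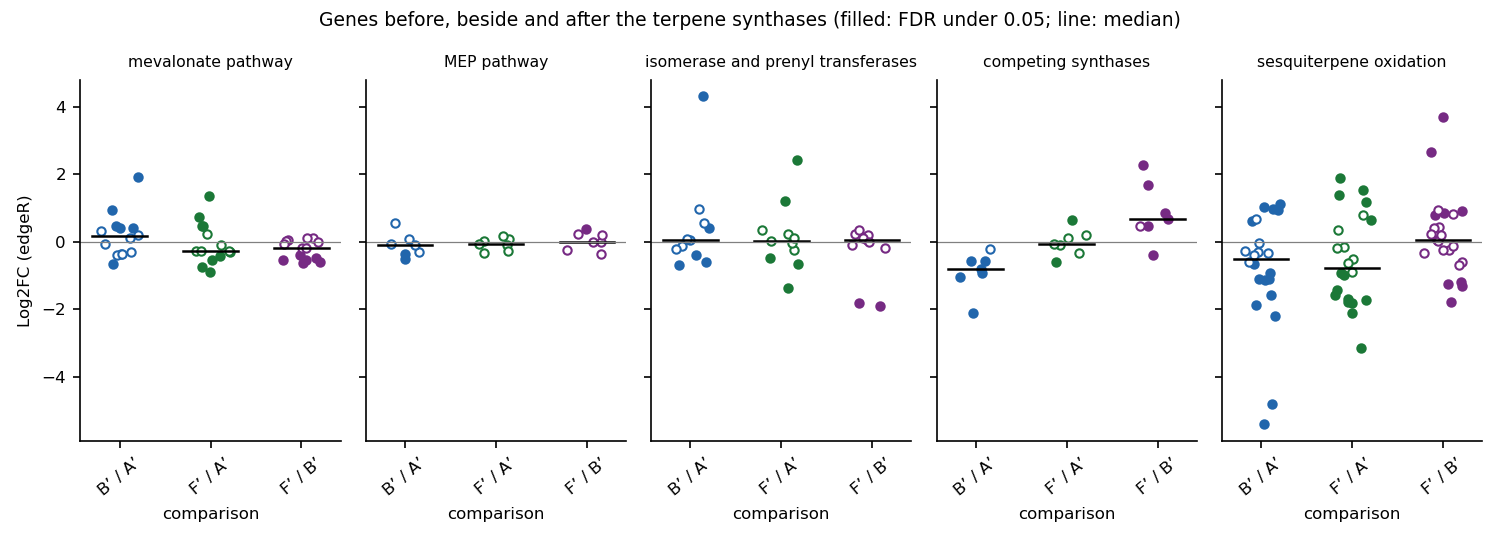
Log2FC from edgeR (y axis) of the genes tested in 5 lists around the terpene synthases, in B’ against A’, F’ against A’ and F’ against B’ (x axis), with filled points for an FDR under 0.05 and a line at the median. In the competing synthases the median is −0.81 in B’ against A’ and 0.68 in F’ against B’, while in the sesquiterpene oxidation list LOC102604954 lies at −4.81 in B’ against A’. The lowest point there is LOC102604276, with B’ at the floor of 3 reads per library, so that its fitted position is no measure of size.

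Cytochromes P450 named for the oxidation of sesquiterpene skeletons were called lower more often than higher against A’. The list held 28 genes, nearly all named premnaspirodiene oxygenase-like after an enzyme that oxidises a vetispiradiene. Of 22 tested against A’, 5 were called higher and 10 lower in B’ (median Log2FC −0.51), where 16.4% of all genes were called higher and 16.5% lower. The same numbers, 5 higher and 10 lower, were called in F’ (median −0.78), where 17.5% of all genes were called higher and 18.2% lower. Of 23 tested in F’ against B’, 5 were called higher and 4 lower (median 0.03), which is 39.1%, against 30% of all genes. LOC102604276 had 15, 12 and 25 reads in the F’ libraries, 2, 0 and 2 in the B’ libraries and 65, 41 and 44 in the A’ libraries, so that B’, set to 3 reads per library, was lower than A’ by at least 21-fold, and F’ was 3.30-fold lower (FDR = 0.0011 by edgeR). LOC102604954 had 14, 3 and 13 reads in F’, 5, 4 and 1 in B’, and 74, 87 and 74 in A’, and was lower in both (Log2FC = −3.15 ± 0.34 in F’ and −4.81 ± 0.38 in B’). For LOC102595326, the reads were 100, 70 and 87 in F’, 271, 209 and 151 in B’, and 284, 370 and 325 in A’, and it was lower in F’ than in A’ (Log2FC = −2.12 ± 0.15). LOC102595946 had 48, 36 and 40 reads in F’, 5, 8 and 8 in B’, and 27, 13 and 22 in A’, and it was 6.28-fold higher in F’ than in B’ (FDR = 2.6e-04). The vetispiradiene synthase-like member LOC102583484 was higher in both bulks, whereas the median of the oxidation list was below 0 in both. Its call in B’ was lost with DESeq2 and without some of the single libraries. The list leaves out members of the rule, so the P450 LOC102586443, which was read in F’ and not in A’, is not part of it. What these P450s act on was not tested.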

How the data were processed

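Leaf RNA of the bulks F’, B’ and A’ (3 libraries each) had been enriched for mRNA with Dynabeads, made into directional libraries and sequenced as paired reads on the BGISEQ-500 platform. The raw counts per gene were made by the authors and deposited as whole numbers without normalization. The submitters’ processing notes name Bowtie2 2.1.0, TopHat2 2.0.9 and DESeq2, without roles; the counter and the treatment of multi-mapped reads are not given in the sources used here. Genes with fewer than 5 reads over the 6 libraries of a comparison were absent from the files. The authors’ normalized counts, fold changes and p-values are in the same tables and were not used. A’ columns were identical in both comparisons. Contig names and gene positions are those of SolTub_3.0, and all 26 members matched the RefSeq gene table of that assembly.

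Each comparison was fitted with edgeR 4.0.16 in R 4.3.3 (filterByExpr, TMM scaling, robust quasi-likelihood test, Benjamini-Hochberg FDR over all genes tested, called under 0.05), F’ against B’ on the 22988 genes in both tables. SEs were obtained from the Log2FC and the F statistic. CPM values used TMM-scaled sizes of all 9 libraries. A group with at most 3 reads in each library was at the floor, and folds against it are lower bounds, counting error only. With 3 libraries against 3, the 6 libraries split in 10 ways, and an exact two-sided permutation test cannot go below p = 0.1. The scripts were tested on simulated data.

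Named members were those called in any comparison, and from each list of pathway genes the 2 largest changes among the calls of each comparison. Members and lists were defined by product words and chosen with earlier results of these data known. Alternatives were DESeq2 1.42.0, upper-quartile scaling, no filter, the replicate number as a block, a joint fit of 9 libraries, an FDR of 0.01, each library left out, and, added after seeing the data, library totals without a scaling factor. No sequences of the members were analysed here.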

Additional observations from a re-analysis of the deposited data

Results flagged for a closer look

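At 2 members, the difference from A’ was not the same in F’ as in B’, by edgeR’s test of F’ against B’. The germacrene D synthase-like locus LOC102598796 was higher than A’ in F’ and lower than A’ in B’, with a Log2FC of 3.16 between F’ and B’ (FDR = 5.7e-06) and no overlap between the libraries. The vetispiradiene synthase 3-like locus LOC102583484 was higher than A’ in both bulks, with a Log2FC of 1.44 between F’ and B’ (FDR = 0.0025). With 3 libraries in a group, the values of single members were not screened for outlying libraries. Over all genes, B’ library 3, A’ library 1 and F’ library 2 stood apart within their bulks, as given above.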

How the results depend on the processing

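The numbers of members called were 6 in B’ against A’, 5 in F’ against A’ and 2 in F’ against B’. Upper-quartile scaling, library totals without a scaling factor and the joint fit of 9 libraries gave the same numbers, and DESeq2 gave 4, 5 and 2. An FDR threshold of 0.01 left 4, 4 and 2. Without the filter on low counts, 7, 7 and 2 members were called, with the germacrene C synthase-like LOC102597215 added, lower than A’ in both comparisons, with F’ and B’ at the floor of 3 reads per library so that the fitted Log2FC is no measure of size, and LOC102586443 added in F’ against A’. Leaving out each library in turn gave between 4 and 6, between 4 and 5, and 2 in each case. With the replicate number as a block, 6, 5 and 2 members were called. The deviations of same-numbered libraries correlated between −0.252 and 0.338, at 0.32 and 0.338 for numbers 2 and 3 of F’ and B’ but not above 0.1 in every pair, so the numbers were not taken as pairs. Of 228 alternative Log2FC values of the 7 named members, 214 kept their direction and their side of the threshold or were not called in either fit, 14 kept the direction and lost the call, and none of those called turned round. Those 14 belong to LOC102583484 and LOC102600675 in B’ against A’ and to LOC102580832 in F’ against A’, and the cause was not tested. Library totals moved the median Log2FC of all genes to 0.29 in B’ against A’, 0.17 in F’ against A’ and −0.11 in F’ against B’, and no call of a member changed. Counts under about 10 reads limit 16 of the 26 members.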

Other observations

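Other loci named for the synthesis of terpenes, outside the words of the rule and chosen after their values were seen, also differed between the bulks. The (3S,6E)-nerolidol synthase 1-like locus LOC102580873, whose product is an acyclic sesquiterpene alcohol, had 17, 9 and 14 reads in the F’ libraries, 15, 15 and 15 in the B’ libraries, and 55, 44 and 35 in the A’ libraries. It was lower than A’ in F’ (Log2FC = −1.93 ± 0.33, FDR = 4.2e-04) and in B’ (Log2FC = −1.89 ± 0.30, FDR = 5.5e-04) by edgeR, and did not pass in F’ against B’ (Log2FC = −0.06, FDR = 0.914). A second locus of this name, LOC102592813, was too low to be tested, with 2, 1 and 3 reads in F’, 2, 1 and 6 in B’, and 9, 9 and 6 in A’. Within 60 kb of the germacrene D synthase-like LOC102598796, the cytochrome P450 CYP72A219-like locus LOC102597820 had 6, 5 and 8 reads in F’, 2, 3 and 3 in B’, and 13, 19 and 12 in A’, lower than A’ in F’ (Log2FC = −1.38 ± 0.43, FDR = 0.0216), and in B’, with B’ at the floor of 3 reads per library.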
